A study of Mus musculus with 11 samples.

Results

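The regions described here are 1004 of 38509 ATAC-seq peaks of mouse CD4 T cells, called shared peaks below, at which anergic and regulatory T (Treg) cells both had more accessible chromatin than naive and effector cells. They were chosen by the measured values themselves. For each peak the log2 of the deposited signal plus 1 was averaged within each group, and a peak was taken when the anergic and the Treg mean each exceeded both the effector and the naive mean by at least 0.8 and differed from each other by less than 0.7. All 1004 passed the filter on low values that left 38493 peaks for testing. The study took 11 ATAC-seq libraries, in which a transposase tags open DNA, from freshly isolated, untreated CD4 T cells of mixed spleen and lymph node. Every group came from wildtype C57BL/6 mice with a polyclonal T cell repertoire and a Foxp3-GFP reporter, and no age is given. Naive cells (n = 2) were sorted by low CD44, and Treg cells (n = 3) by FOXP3 and CD25. Effector cells, labelled Teff (n = 3), and anergic cells (n = 3) both had high CD44 and no FOXP3; the effector sort took cells with little CD73 and FR4, and the anergic sort cells with much of both that also carried NRP1. The labels do not say whether replicates came from separate animals, so that spreads and adjusted p-values cover these libraries only. RNA-seq was not analysed here.

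Anergy is a state in which a T cell that has met its antigen without adequate costimulation persists but responds poorly to it, and Treg cells, defined by the transcription factor FOXP3, restrain other T cells. Both are tolerant states of CD4 cells exposed to self antigen, and anergic cells can give rise to Treg cells. Accessible regions away from promoters are mostly enhancers, where transcription factors bind short motifs. AP-1 proteins (JUN, FOS and BATF) bind TGANTCA after T cell receptor signalling, and BATF with IRF4 binds composite sites in which a GAAA half-site lies beside or near the AP-1 site. NF-kB, NFAT and NR4A factors also act after receptor signalling.

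Windows of 300 bases around the centres of 6 shared peaks, at 6 named genes, are shown. For each gene the member with most composite matches was taken, then most AP-1 and NF-kB matches, then the largest margin (defined below). The windows were thus selected for these motifs. Of all distal shared peaks, 34.6% held an AP-1 match and 2.83% a composite. The bases are from the GRCm38/mm10 reference, plus strand, with matches to AP-1, BATF-IRF composite and NF-kB (GGANTTTCC) patterns on either strand in capitals.
Cd83, 23.7 kb upstream, chr13:43761229-43761528: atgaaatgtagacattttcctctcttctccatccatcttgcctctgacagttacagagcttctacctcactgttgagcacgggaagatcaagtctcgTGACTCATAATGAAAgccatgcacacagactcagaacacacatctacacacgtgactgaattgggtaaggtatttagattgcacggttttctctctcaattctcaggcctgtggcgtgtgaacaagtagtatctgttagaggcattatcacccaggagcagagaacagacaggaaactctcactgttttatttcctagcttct
Tox, intron, chr4:6930702-6931001: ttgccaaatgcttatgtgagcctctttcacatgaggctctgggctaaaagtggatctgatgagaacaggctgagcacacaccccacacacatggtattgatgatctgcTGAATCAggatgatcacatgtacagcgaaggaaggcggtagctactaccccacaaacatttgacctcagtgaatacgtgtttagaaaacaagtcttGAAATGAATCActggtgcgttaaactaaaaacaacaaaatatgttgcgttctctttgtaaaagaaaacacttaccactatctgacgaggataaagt
Foxp1, intron, chr6:99340989-99341288: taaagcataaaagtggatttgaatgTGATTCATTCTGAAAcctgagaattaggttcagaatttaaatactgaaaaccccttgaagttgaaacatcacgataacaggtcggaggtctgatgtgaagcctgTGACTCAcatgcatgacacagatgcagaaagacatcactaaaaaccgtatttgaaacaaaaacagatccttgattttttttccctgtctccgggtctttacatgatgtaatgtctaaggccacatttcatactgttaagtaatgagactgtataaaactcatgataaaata
Il1r2, 28.6 kb upstream, chr1:40055950-40056249: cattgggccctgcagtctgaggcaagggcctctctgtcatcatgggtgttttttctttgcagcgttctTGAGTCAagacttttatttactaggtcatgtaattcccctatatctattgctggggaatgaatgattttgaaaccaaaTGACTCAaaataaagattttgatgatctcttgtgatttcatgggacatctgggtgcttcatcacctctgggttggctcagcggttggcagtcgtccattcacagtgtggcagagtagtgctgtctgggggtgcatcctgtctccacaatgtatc
Tnfsf8, 45 kb upstream, chr4:63906138-63906437: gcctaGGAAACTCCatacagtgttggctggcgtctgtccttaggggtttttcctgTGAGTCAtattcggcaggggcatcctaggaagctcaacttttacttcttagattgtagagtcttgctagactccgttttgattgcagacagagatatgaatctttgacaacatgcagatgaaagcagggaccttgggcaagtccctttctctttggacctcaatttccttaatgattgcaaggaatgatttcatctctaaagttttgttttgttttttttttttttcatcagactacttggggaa
Acvr1c, intron, chr2:58323233-58323532: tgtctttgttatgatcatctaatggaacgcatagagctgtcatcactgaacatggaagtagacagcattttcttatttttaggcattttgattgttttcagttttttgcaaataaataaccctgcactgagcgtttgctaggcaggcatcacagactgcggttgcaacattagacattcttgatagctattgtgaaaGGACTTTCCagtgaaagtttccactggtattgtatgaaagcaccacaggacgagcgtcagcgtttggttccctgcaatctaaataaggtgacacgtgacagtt
The Cd83 and Foxp1 windows each hold a spaced composite, read on the other strand as TTTC, 4 bases, then TGANTCA. The Tox window holds an adjoined composite, GAAA directly before TGANTCA, besides a separate AP-1 match. In the Il1r2 window an AP-1 match starts 3 bases before the centre and another 81 bases before it. The Tnfsf8 window has an NF-kB and an AP-1 match, and the Acvr1c window has an NF-kB match, 48 bases after the centre, and no AP-1 match.

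Reads in peaks ranged from 14.7 to 68.8 M per library, and the median signal of all peaks lay between 208 and 225 in every library. The Foxp3 gene, at its only peak, in an intron (chrX:7583720-7584393), had signals of 1597, 1118 and 1278 in the Treg libraries and 184, 114 and 96.1 in the anergic libraries, which were sorted as FOXP3 negative. At this Foxp3 peak the effector libraries had 15.9, 14.0 and 63.3 and the naive libraries 15.4 and 7.74. Effector replicate 3 stood apart from the other effector libraries in the same way at Lrrc32 (chr7:98491693-98492257), which encodes a TGF-beta carrier of Treg cells, with 96.7 against 22.2 and 30.6. It was also the highest effector library at 588 shared peaks (58.6%), against 36.7% of all peaks. Without it 1142 peaks met the rule, 971 of them among the 1004. Neither Foxp3 nor Lrrc32 held a shared peak, since their anergic and Treg means were too far apart. Over the 4 Treg marker genes Foxp3, Il2ra, Ikzf2 and Lrrc32 (42 peaks, 9 of them shared peaks, all of Ikzf2), the summed signal was 19745 to 21739 in Treg, 11195 to 11634 in anergic, 7676 to 8619 in effector and 5085 to 5347 in naive libraries. What part FOXP3-expressing cells in the anergic or effector sorts have in the shared peaks was not tested.

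The shared peaks were weak in naive cells, intermediate in effector cells and well covered in both tolerant groups. Their median signal was 24.4 and 24.8 in the naive libraries, 53.0, 56.2 and 70.0 in the effector, 187, 191 and 179 in the anergic, and 158, 177 and 178 in the Treg libraries. Every tolerant library therefore had a higher median than every effector library, and every effector library a higher median than both naive libraries. The choice of peaks partly fixes this order. The shared peaks took 0.152 to 0.153% of the reads in peaks of naive libraries, 0.278 to 0.333% in effector, 0.846 to 0.911% in anergic and 0.835 to 0.929% in Treg libraries. The depth behind a shared peak was a median of 30 and 32 reads in the naive libraries, 42.0 to 76.5 in the effector, 113 to 363 in the anergic and 83.0 to 140.5 in the Treg libraries, so that the naive levels are the least precise.

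**Figure D1:**
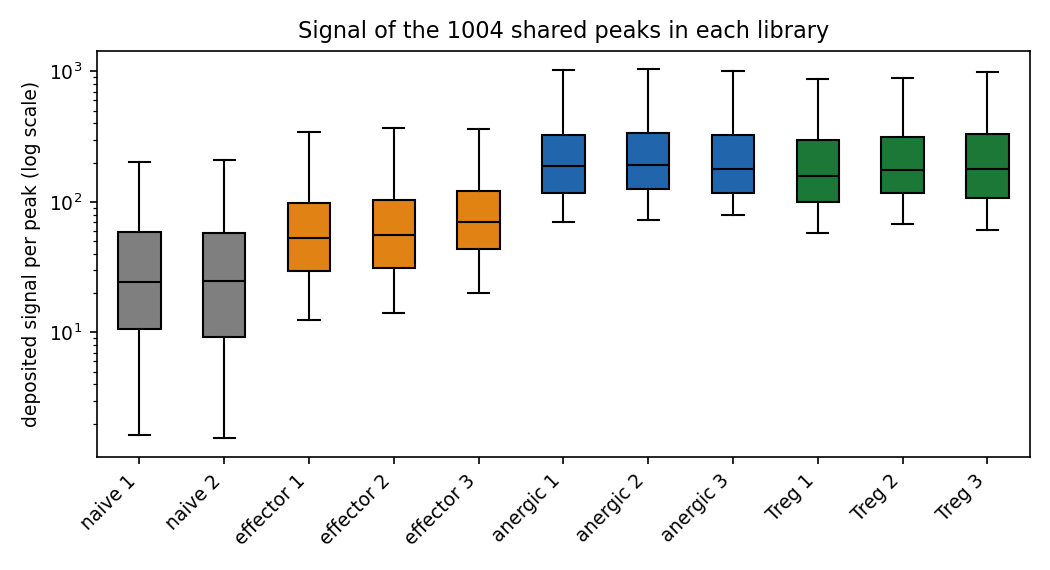
Deposited signal of the 1004 shared peaks (vertical axis, log scale) in each of the 11 libraries, with boxes from the lower to the upper quartile, a line at the median and whiskers from the 5th to the 95th percentile. Medians lie near 24 in naive, between 53.0 and 70.0 in effector and between 158 and 191 in anergic and Treg libraries, an order that the choice of peaks partly fixes.

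The margin of a shared peak, the lower of its anergic and Treg means less the higher of its effector and naive means on the log2 scale, ran from 0.80 to 4.34 with a median of 1.29. It was at least 1 at 768 peaks, at least 2 at 182 and at least 3 at 24. The 6 tolerant libraries lay above all 5 effector and naive libraries at 940 shared peaks (93.6%), against 7.34% of all peaks. With limma, at an adjusted p of 0.05 over all 38493 tested peaks, 981 shared peaks were called higher in anergic than effector cells (15.9% of all tested peaks) and 1000 higher in anergic than naive cells (25.3% of all). In Treg cells 956 were called higher than in effector cells (14.4% of all) and 993 higher than in naive cells (22.3% of all). These contrasts chose the peaks, so the counts describe the choice and are no finding. Just inside the threshold were peaks nearest to Kbtbd11 (margin 0.8009), Acot11 (0.8010) and Cxcr5 (0.8018), and just outside it were peaks nearest to Ube2e3 (0.7999), Mucl3 (0.7981) and Zc3h12d (0.7971).

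The difference between effector and naive cells was no term of the rule, although both means enter it as the level to be exceeded. Effector means were above naive means at 894 shared peaks (89.0%), against 48.0% of all peaks. The median difference was 1.22 on the log2 scale, with quartiles of 0.42 and 2.10, and -0.03 over all peaks. With limma, 644 shared peaks (64.1%) were called higher in effector than naive cells, where 22.7% of all tested peaks were, and 8 (0.797%) were called lower, where 17.4% of all were. Without effector replicate 3 the higher calls were 627 of 1142 (54.9%), and without either naive library 557 of 1002 and 550 of 995. The share of all tested peaks was not computed with a library left out, so the 22.7% does not apply to these counts. On the log2 scale, effector cells lay at a median of 45.5% of the way from naive cells to the lower of the tolerant means (quartiles 23.6% and 59.1%). The rule holds effector means at least 0.8 under the lower tolerant mean, so this position is bounded by the choice of peaks and only describes it. The shared peaks thus divide into 645 at which effector cells were at least 0.8 above naive, 350 within 0.8 of naive and 9 at least 0.8 below. AP-1 matches were found in 35.5% of the first class and 26.6% of the second, and the median margins were 1.44 and 1.14.

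**Figure D2:**
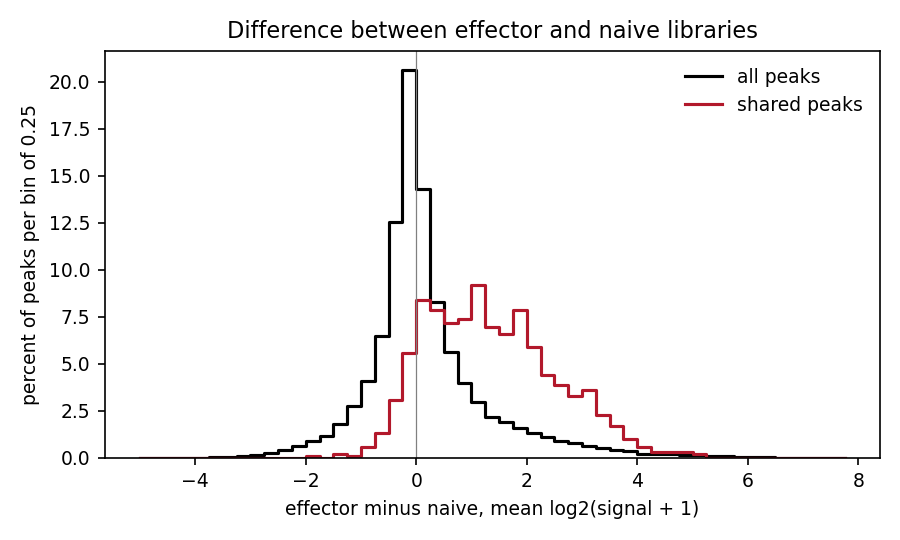
Difference of the effector and naive means of log2(signal + 1) (horizontal axis) against the percentage of peaks in each bin of 0.25, for all peaks in black and the 1004 shared peaks in red. All peaks centre near 0 (median -0.03), while the shared peaks spread to the right with a median of 1.22.

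Anergic and Treg cells were bounded to lie close together, and the remaining differences leaned to the anergic side. The anergic mean was above the Treg mean at 682 shared peaks (67.9%), against 53.7% of all peaks, with a median difference of 0.18 on the log2 scale and extremes of -0.69 and 0.70. By limma, 48 shared peaks (4.78%) were called higher in anergic than Treg cells, against 19.4% of all tested peaks, and 17 (1.69%) were called lower, against 14.8% of all. With any 1 of the 6 anergic and Treg libraries left out and the peaks chosen again, limma called 21 to 30 higher and 8 to 14 lower. With all libraries, edgeR on recovered reads called 43 shared peaks higher and 33 lower. Over all 38493 tested peaks edgeR called 12820 in either direction. The bound of 0.7 keeps such counts small, and shares of all tested peaks were not computed with a library left out. The lean was measured on the deposited scaling, and giving every library the same total moved the median of all peaks by -0.13 for anergic less Treg, by 0.10 for Treg less effector and by 0.17 for Treg less naive. Under that scaling 1170 peaks met the rule, 960 of them among the 1004.

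Shared peaks lay mostly away from promoters. Of all, 86 (8.57%) were within 1 kb of a RefSeq start site, against 33.2% of all peaks on chromosomes, and the median distance was 21.0 kb against 5.61 kb. Introns held 51.8% and intergenic sequence 43.9%, and 23.1% lay more than 50 kb from a start site, against 11.5% of all peaks. In these respects they resembled the 2313 anergic-only peaks (8.30% within 1 kb, median distance 21.5 kb) and the 329 Treg-only peaks on chromosomes (8.82%, 17.0 kb). These sets were defined by a mean at least 0.8 above each other group. Their names give the highest group, and other groups may be open at these peaks too. The 1107 peaks open in all 3 antigen-experienced groups were nearer, with 19.8% within 1 kb and a median of 6.93 kb. The median width of shared peaks was 308 bases (all peaks 369), and their windows had a median GC content of 46.7% (all peaks 52.0%, all distal peaks 49.3%). By chromosome, 5.01% of peaks on chromosome 13 and 4.45% on chromosome 16 were shared peaks, and 0.899% on chromosome X.

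Distal shared peaks, more than 1 kb from a start site (918), carried AP-1 matches (TGANTCA) in 34.6% of their 300-base windows, against 15.3% of all 25675 distal peaks. Distal anergic-only peaks had them in 38.9% and distal Treg-only peaks in 18.7%. Over all peaks, promoter peaks included, the share that were shared peaks was 2.00% among windows with no AP-1 match, 6.62% with 1 match and 11.2% with 2 or more. AP-1 matches were rarer over all peaks (11.8%) than over distal peaks, and shared peaks were scarce near start sites. What part position has in this rise was not tested. Of the AP-1 matches in distal shared peaks 54.1% lay within 50 bases of the centre, against 43.4% in all distal peaks and 34.0% if spread evenly. Over all shared peaks, promoter peaks included, AP-1 was found in 29.5%, 30.3%, 31.1% and 38.6% of windows from the lowest to the highest of 4 equal classes of margin. In the same classes 12%, 8.76%, 7.97% and 5.58% of peaks lay within 1 kb of a start site. What part this fall has in the AP-1 shares was not tested. BATF-IRF composites of either spacing, which contain the AP-1 pattern, were found in 26 distal shared peaks (2.83%), in 3.82% of the anergic-only and none of the 300 Treg-only peaks, and in 0.802% of all distal peaks. All of these are counts over peaks, described without a test.

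For NFAT and NR4A the shared peaks lay between both one-sided sets. NFAT (TGGAAAA) was found in 9.48% of distal shared peaks, 20.3% of anergic-only, 2.33% of Treg-only and 7.18% of all distal peaks. NR4A (AAAGGTCA) had the reverse order, with 5.66% of shared, 2.03% of anergic-only, 8% of Treg-only and 1.78% of all. NF-kB (GGANTTTCC) was found in 6.10% of shared peaks, 3.72% of anergic-only, 4.33% of Treg-only and 2.06% of all, and 59.6% of its matches in shared peaks lay within 50 bases of the centre (47.7% in all distal peaks). STAT (TTCNNNGAA) was found in 12.5%, 8.44%, 15.3% and 8.81% of the same sets. RUNX (TGTGGTT) was found in 8.71% of shared peaks against 14.7% of all distal peaks, and ETS (CAGGAAGT) in 4.47% against 9.13%. The GATA motif AGATAAG was found in 2.83% against 4.26% and CTCF in 0.218% against 1.19%. Forkhead matches (TGTTTAC), the kind FOXP3 and FOXO1 bind, were found in 5.77% against 4.89%, and pairs of GAAA 2 bases apart, bound by IRF factors, in 5.88% against 5.62%. The remaining patterns were CRE (TGACGTCA), T-box (AGGTGTGA), TCF/LEF (ATCAAAG), KLF (GGGTGTGG), the E-boxes CAGCTG and also CAGGTG, EGR (GCGTGGGCG), GC box (GGGGCGGGG), TGC directly before TGANTCA for BACH or MAF, and the ROR and PRDM1 motifs. Their share in distal shared peaks was 0.703 (GC box) to 1.60 (EGR, 4 peaks) times that in all distal peaks. Both strands were searched, and strict patterns such as these miss variant sites. Only the central 300 bases were searched, so matches elsewhere in wider peaks are not counted.

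**Figure D3:**
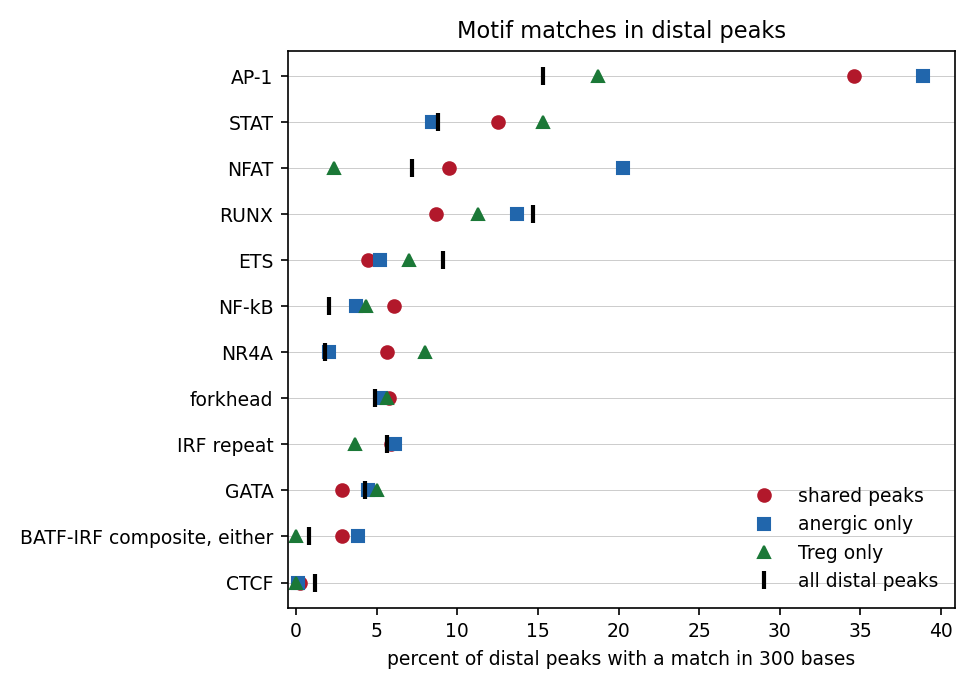
Percentage of distal peaks whose 300-base window holds each motif (horizontal axis) for the 918 shared peaks, the anergic-only and Treg-only peaks and all 25675 distal peaks. Shared peaks lie far right of all distal peaks for AP-1 (34.6% against 15.3%), lie between both one-sided sets for NFAT and NR4A, and lie left of all distal peaks for RUNX and ETS.

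The shared peaks were nearest to 701 of the 14242 genes that have a peak. Of these genes 522 had 1 shared peak, 122 had 2 and 57 had 3 or more, which held 238 shared peaks. Chaining shared peaks less than 25 kb apart gave 776 loci, of which 620 held 1 peak and 15 held 4 or more, and 384 shared peaks (38.2%) had another within reach. The locus with the most shared peaks was at Cd83 and Gm20751, with 11 of the 14 peaks of a 36.4 kb stretch (chr13:43750410-43786849). These are not the same 11 peaks as those counted for Cd83 by nearest gene. The latter include a peak 81.5 kb from the Cd83 start (chr13:43866472-43866664), outside the stretch. Ctla4 followed with 8 shared peaks of 12 over 32.3 kb, then Cdk6 introns (nearest start Fam133b) with 6 of 7 over 22.6 kb, Bach2 with 6 of 9 over 21.9 kb and the locus nearest to Lrig1 and Mir7041 with 6 of 10 over 51.2 kb. By nearest gene, the highest counts were Cd83 (11 of its 17 peaks), Ikzf2 (9 of 17), Ctla4 (9 of 21), Bach2 (7 of 51), Fam133b (6 of 8), Jak2 (6 of 13) and 5 each for Tox (of 22), Il1r2 (of 7), Hif1a (of 15), Cwc27 (of 9), Macroh2a3 (of 15) and Tnfrsf8 (of 10). The nearest start need not be the regulated gene: all 6 peaks given to Fam133b lay in introns of Cdk6, a cell cycle kinase gene, 4 of the 5 given to Macroh2a3 lay in the Pvt1 gene next to Myc, and those given to Cwc27 lay 189.75 to 209.98 kb from it.

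**Figure D4:**
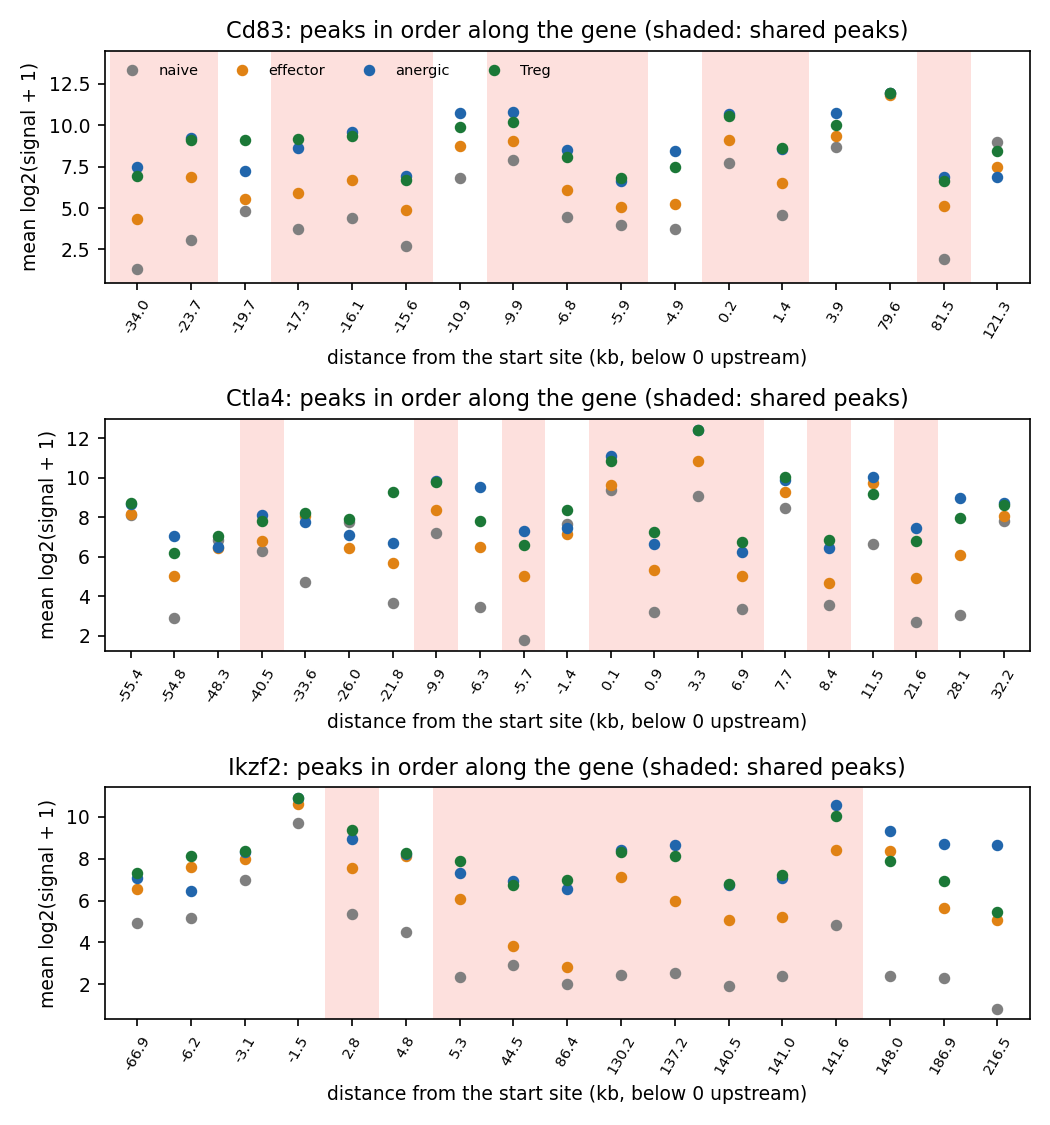
Group means of log2(signal + 1) (vertical axis) at every peak nearest to Cd83, Ctla4 and Ikzf2, in order along each gene with the distance from the start site in kb, shared peaks shaded. In the shaded columns the anergic (blue) and Treg (green) points lie together above effector (orange) and naive (grey). The unshaded columns include peaks clearly highest in 1 tolerant group and peaks high in 3 groups.

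Surface receptors and coreceptors held several of the densest groups. At Cd83, which encodes a surface protein of activated lymphocytes and dendritic cells, the peak 23.7 kb upstream that carries the BATF-IRF composite shown above had signals of 8.94 and 6.19 in naive, 106, 129.7 and 118 in effector, 608, 638 and 545 in anergic and 505, 581 and 603 in Treg libraries. Naive cells were near 0 there, and all tolerant libraries lay more than 3 times above every effector library. The Cd83 peak at the start site (chr13:43784760-43785927) had 217 and 204 in naive, 487, 589.7 and 622 in effector, 1441, 1562 and 1906 in anergic and 1351, 1626 and 1610.5 in Treg libraries. The 11 Cd83 margins ran from 1.15 to 2.75, effector cells were above naive by 1.04 to 3.81 on the log2 scale, and 4 peaks held an AP-1 match. A Cd83 peak 19.7 kb upstream was Treg-only and 2 others anergic-only in the sense defined above. At each of them the other tolerant group was also above effector and naive cells. The one 19.7 kb upstream had log2 means of 9.11 in Treg, 7.23 in anergic, 5.56 in effector and 4.83 in naive cells.

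Ctla4 encodes the inhibitory receptor that competes with CD28 for its ligands. Its widest shared peak, in an intron (chr1:60910378-60914261), had 463 and 655 in naive, 1532, 1836 and 2198 in effector, 5449.7, 5306 and 5765 in anergic and 5124, 5009 and 6854 in Treg libraries, the strongest signal among the Ctla4 members. The 5′ UTR peak of Ctla4 (chr1:60908582-60909612) had 749.9 and 612 in naive, 830.0, 715 and 815 in effector, 2235, 2130.2 and 2181 in anergic and 1765, 1688 and 2197 in Treg libraries. Effector and naive libraries overlapped at this promoter, while all 6 tolerant libraries were above them. None of the 9 Ctla4 members held an AP-1 match, 1 held an NF-kB match, and their margins ran from 0.98 to 1.85. Of the other 12 Ctla4 peaks, 3 were anergic-only and 1 was Treg-only, that is, highest in that group by at least 0.8. At each of them the other tolerant group was also above effector and naive cells. Tigit, another inhibitory receptor, had 2 shared peaks, the larger 37.9 kb upstream (chr16:43701820-43702425) with 16.2 and 6.97 in naive, 80.3, 59.5 and 108 in effector, 391, 287 and 279 in anergic and 256, 317 and 209 in Treg libraries.

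Among receptors of the TNF family, which costimulate T cells, 9 of 57 peaks (15.8%) were shared peaks, in Tnfrsf8, Tnfrsf4 and Tnfrsf9 only. Tnfrsf8, which encodes CD30, had 5, with the largest margin (2.67) in an intron 30.3 kb from the start (chr4:145284664-145284997) at 4.87 and 3.1 in naive, 31.2, 15.7 and 36.7 in effector, 212, 183 and 154 in anergic and 157, 187 and 173 in Treg libraries. Effector cells were low there beside the tolerant groups but 2.47 above naive cells on the log2 scale, the largest such difference of the 5 members. At 2 other Tnfrsf8 members effector and naive cells were nearly level. Tnfrsf4, which encodes OX40, had a peak 5.18 kb upstream, in an intron of Sdf4 (chr4:156008086-156008934), with 26 and 32.5 in naive, 105, 136 and 190.0 in effector, 834, 941 and 877 in anergic and 635, 700.3 and 542 in Treg libraries. Tnfrsf9, which encodes 4-1BB, had one 2.62 kb upstream (chr4:150917376-150917695) with 32.5 and 25.6 in naive, 91.4, 92.5 and 113 in effector, 323, 247 and 261 in anergic and 322, 398 and 386 in Treg libraries. Of their ligands, Tnfsf8 (CD30 ligand) had 4 shared peaks of 21, and 14 others were anergic-only, that is, highest there by at least 0.8. Its largest shared peak, the window shown above, had 16.2 and 11.6 in naive, 51.9, 33 and 63.3 in effector, 232, 439 and 334 in anergic and 229.7, 258 and 191 in Treg libraries. Both sides of the CD30 pair thus held shared peaks.

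Il1r2, the decoy receptor that binds interleukin-1 without signalling, had 5 shared peaks of 7. The one with a central AP-1 match, 28.6 kb upstream, had 8.12 and 5.42 in naive, 46.4, 56.2 and 63.3 in effector, 318, 338 and 344 in anergic and 311, 396 and 458 in Treg libraries. The next, at 25.4 kb, had 33.3 and 41.8 in naive, 30.5, 39.6 and 100 in effector, 389.6, 444 and 367 in anergic and 235, 289 and 251 in Treg libraries, with effector and naive libraries intermixed apart from effector replicate 3. Il6st, the signalling chain of the interleukin-6 receptor family, had a member 79.9 kb upstream (chr13:112384057-112384241) with 8.12 and 12.4 in naive, 11.8, 9.91 and 11.7 in effector, 118, 63.8 and 107 in anergic and 61.9, 68.1 and 176 in Treg libraries. In cytokine receptor and STAT genes together 15 of 207 peaks (7.25%) were shared, but none of the 13 peaks of Il2ra, the gene of the Treg sort marker CD25.

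Integrin and TGF-beta genes included some of the largest margins. Integrin alpha-V and beta-8 pair to activate latent TGF-beta. Itgb8 had 2 shared peaks, one at its promoter (chr12:119237905-119238948) with 56.9 and 65 in naive, 170.3, 173 and 152 in effector, 1195, 993 and 1070.0 in anergic and 1109, 981 and 1129 in Treg libraries, where no anergic or Treg library came below 981. The other, an intronic peak of 108 bases with an NR4A match (chr12:119204576-119204683), had 5.69 and 0.774 in naive, 2.08, 0.826 and 6.67 in effector, 48.1, 63.3 and 72.5 in anergic and 78.8, 93.7 and 120.3 in Treg libraries, among the largest margins of all (4.13) but with few reads in effector and naive cells. Itgav had 4 shared peaks of 8, and the one 23.5 kb upstream with 2 AP-1 matches (chr2:83700415-83701349) had 32.5 and 41.8 in naive, 219, 298 and 238 in effector, 1471, 1420.1 and 1499 in anergic and 1682, 1264 and 1654 in Treg libraries. Over migration and integrin genes 20 of 226 peaks (8.85%) were shared. Ccr8, a chemokine receptor of tissue Treg cells, had one at its promoter (chr9:120090842-120092260) with 351 and 405 in naive, 406, 640.1 and 745 in effector, 1167, 1439 and 1347 in anergic and 1278, 1614 and 1742 in Treg libraries. Ccr6, another chemokine receptor, had 2, of which the one with the larger margin (chr17:8209785-8209992) had 5.69 and 0.774 in naive, 20.1, 12.4 and 15 in effector, 156, 131 and 130.3 in anergic and 92.3, 87.3 and 89.9 in Treg libraries.

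Among secreted proteins, Areg, which encodes the repair factor amphiregulin, had a shared peak over its 5′ UTR (chr5:91139354-91139900) with 41.4 and 56.5 in naive, 119.8, 89.2 and 145 in effector, 723, 550.3 and 645 in anergic and 426, 317 and 452 in Treg libraries. Anergic libraries were above Treg libraries there, by 0.69 on the log2 scale, near the bound of the rule. Ifng had 3 shared peaks of 11. The largest Ifng margin, 19.8 kb from the start (chr10:118460731-118461060), came from 12.2 and 15.5 in naive, 28.4, 33.9 and 86.7 in effector, 87.9, 124 and 180.0 in anergic and 80, 106 and 230.4 in Treg libraries, where effector replicate 3 was above Treg replicate 1. No Il10 peak of 13 was shared, and 8 were anergic-only, that is, highest in anergic cells by at least 0.8. Other groups could be open there too. The Il10 peak with the widest range over groups, 16.4 kb upstream, had mean signals of 1736 in anergic, 464 in Treg, 308 in effector and 9.17 in naive cells.

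Transcription factor genes of tolerant and chronically stimulated cells held 14 shared peaks at Ikzf2 and Tox. Ikzf2 encodes Helios, a factor of Treg cells. In an intron 141.6 kb from its start (chr1:69543940-69544760) it had 30.1 and 24.8 in naive, 348, 358 and 320.0 in effector, 1534, 1517 and 1431 in anergic and 999, 1073 and 1038 in Treg libraries, with effector libraries between naive and tolerant ones. The Ikzf2 intron peak with the largest margin (3.75, chr1:69599467-69599625) had 2.44 and 3.87 in naive, 6.92, 15.7 and 1.67 in effector, 77.9, 100 and 107 in anergic and 111, 143 and 124 in Treg libraries. Effector and naive libraries overlapped there, with a mean difference of 0.788 on the log2 scale that rests on few reads. Ikzf2 supplied all 9 shared peaks of the Ikaros family, whose other genes had none in 30 peaks. Tox, a factor of chronically stimulated T cells, had 5 shared peaks and 9 anergic-only peaks. Its peak with the adjoined BATF-IRF composite (chr4:6930690-6931014) had 2.44 and 3.87 in naive, 27, 16.5 and 26.7 in effector, 318, 207 and 208 in anergic and 143, 170.3 and 168 in Treg libraries. Another Tox intron peak (chr4:6859875-6860038; margin 3.48) had 8.12 and 6.19 in naive, 19.4, 5.78 and 3.33 in effector, 96.2, 98 and 98.1 in anergic and 126, 74.5 and 86.1 in Treg libraries, and at 4 of the 5 Tox members effector cells differed from naive cells by -0.83 to 0.78 on the log2 scale.

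Several regulators of effector differentiation also had shared peaks (6 of 65 peaks, 9.23%). Nfil3, a basic leucine zipper factor, had 8.12 and 29.4 in naive, 110.1, 88.4 and 103 in effector, 763, 853 and 791 in anergic and 489, 517 and 622 in Treg libraries in an intron (chr13:52976274-52977110). Ahr, the aryl hydrocarbon receptor, had 4.06 and 2.32 in naive, 33.9, 29.7 and 66.7 in effector, 197, 308 and 222 in anergic and 155, 168 and 215 in Treg libraries at a peak 28.1 kb upstream (chr12:35562863-35563254). Prdm1, which encodes BLIMP-1, had 1 shared peak, in an intron (chr10:44444453-44444717), with 14.6 and 5.42 in naive, 45.7, 26.4 and 28.3 in effector, 186, 133 and 171 in anergic and 80, 128 and 133 in Treg libraries. All 3 showed the effector libraries between naive and tolerant ones. Irf4, the partner of BATF, had 1, in an intron of Exoc2 82.3 kb away (chr13:30831242-30831764), with an NF-kB match and 30.9 and 20.9 in naive, 84.5, 89.2 and 112 in effector, 507, 583 and 453 in anergic and 362, 351 and 295 in Treg libraries. No Batf peak of 10 was shared, 2 being anergic-only and 2 open in all antigen-experienced cells.

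Over the list of factors that maintain naive or resting T cells, 14 of 371 peaks (3.77%) were shared, near the 2.61% of all peaks, and Bach2 supplied 7 of the 14. Bach2, a repressor that limits effector differentiation, had 51 peaks in all, and the shared one 8.45 kb into the gene (chr4:32425739-32426028) had 30.9 and 71.2 in naive, 33.9, 47.9 and 46.7 in effector, 139, 194 and 195 in anergic and 153, 159.7 and 101 in Treg libraries. Effector and naive libraries were intermixed there, and at 4 of the 7 Bach2 members their means differed by at most 0.23 on the log2 scale. Foxp1 had 4 of 56, with 14.6 and 40.3 in naive, 51.2, 68.5 and 43.3 in effector, 259, 287 and 264 in anergic and 367, 253 and 414 in Treg libraries at the window shown above. Foxo1 had 1, in an intron (chr3:52302868-52303098), with 3.25 and 15.5 in naive, 23.5, 16.5 and 23.3 in effector, 146, 118 and 115 in anergic and 99.1, 115 and 141 in Treg libraries.

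Jak2, a kinase of cytokine receptors, had 6 shared peaks of 13, and its strongest, in an intron 19.5 kb from the start (chr19:29270910-29271622), had 53.6 and 51.9 in naive, 887, 753 and 632 in effector, 2364, 2675 and 2403 in anergic and 1542, 1377 and 1766 in Treg libraries. Hif1a, the oxygen-regulated factor, had 5 shared peaks of 15, and the one with the largest margin (2.09), 24.6 kb upstream (chr12:73876665-73876852), had 22.7 and 8.52 in naive, 38.1, 23.1 and 23.3 in effector, 177, 142 and 138 in anergic and 133, 136 and 95 in Treg libraries. Of genes that restrain T cell receptor signalling 6 of 235 peaks (2.55%) were shared, close to the 2.61% of all peaks. Among these Dusp4, a phosphatase of MAP kinases, had one 51.9 kb upstream (chr8:34755436-34756002) with 37.4 and 41 in naive, 83.8, 129 and 125 in effector, 361, 549 and 388 in anergic and 735, 639 and 596 in Treg libraries. NR4A, EGR and NFAT factor genes had 2 of 89 (2.25%), 1 each at Nfatc3 and Nfat5, and NF-kB pathway genes 5 of 122 (4.10%), 3 of them at Nfkb1.

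The title of the study names BATF and BIM, the death-promoting protein encoded by Bcl2l11. Of 14 peaks nearest to Bcl2l11, 2 were shared, both in introns of the neighbouring gene Acoxl. The one 33.8 kb upstream of the Bcl2l11 start (chr2:128092095-128092476) had 80.4 and 51.9 in naive, 78.2, 94.2 and 63.3 in effector, 300.1, 420.1 and 426 in anergic and 305, 430.0 and 396 in Treg libraries. The other, 65.0 kb upstream (chr2:128060847-128061279), had 66.6 and 59.6 in naive, 132, 160.2 and 133 in effector, 257, 347 and 263 in anergic and 313, 255 and 276 in Treg libraries. Effector cells were level with naive cells at the nearer peak and 1.15 ± 0.22 (SE) above them, on the log2 scale, at the farther one. Neither peak held an AP-1, NFAT or NF-kB match in its central 300 bases. In the whole list of BCL2 family and cell death genes 9 of 120 peaks (7.5%) were shared, 4 of them at Pmaip1, which encodes the BH3-only protein NOXA. The Pmaip1 peak with the largest margin, 49.3 kb upstream (chr18:66409140-66409544), had 35.7 and 36.4 in naive, 36, 37.2 and 61.7 in effector, 196, 184 and 144 in anergic and 168, 149 and 184 in Treg libraries.

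Of the 49 peaks nearest to genes of the sort markers, 4 (8.16%) were shared, against 2.61% of all peaks. Cd44 had 2 of 16, Izumo1r, which encodes FR4, 1 of 7, and Nrp1 1 of 3, while Nt5e, which encodes CD73, had none of 5 and Cd4 none of 4. The Nrp1 peak lay at the promoter (chr8:128358134-128359250) with 303 and 259 in naive, 332, 358 and 373 in effector, 600.2, 686 and 720.0 in anergic and 564, 683 and 627 in Treg libraries, a margin of 0.81. The Izumo1r peak, 17.8 kb upstream (chr9:14921408-14921644), had 39.8 and 75.9 in naive, 66.5, 81.8 and 60 in effector, 181, 135 and 126 in anergic and 127, 211 and 230.4 in Treg libraries. At the Nt5e intron peak (chr9:88332304-88332968), by contrast, anergic libraries had 534, 638 and 604 and Treg libraries 188, 353 and 257.

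The largest margins among shared peaks without library overlap and with a well-covered signal were at Acvr1c, Mir7665, Nup35, Ikzf2, Fndc3a, Tox, Noxa1, Hibadh, Stk31 and Atxn7. Acvr1c encodes a type I receptor of the activin and TGF-beta family, and its intron peak had 13 and 4.65 in naive, 3.46, 24.8 and 5 in effector, 237, 214 and 214 in anergic and 158, 192 and 189 in Treg libraries. The peak given to Mir7665, in an intron of Mapkbp1 (chr2:120003860-120004334), had 24.4 and 0.774 in naive, 20.1, 19.8 and 13.3 in effector, 395, 351 and 351 in anergic and 487, 611 and 590.0 in Treg libraries. At the peak 78.9 kb from Nup35 (chr2:80717930-80718343), with an NF-kB and an NFAT match, the values were 5.69 and 3.1 in naive, 11.8, 33 and 31.7 in effector, 396, 350.0 and 419.8 in anergic and 387, 353 and 444 in Treg libraries. No effector library exceeded 33 at these sites. Noxa1, which encodes an activator of NADPH oxidase, had the largest margin of the promoter peaks (chr2:25095157-25095515), with 8.12 and 11.6 in naive, 11.1, 20.6 and 31.7 in effector, 264, 215 and 220.3 in anergic and 233, 202 and 243 in Treg libraries. A strong and distant peak, 191 kb from Stk31 (chr6:49586275-49586937), had 13 and 14.7 in naive, 87.2, 72.7 and 56.7 in effector, 763, 725 and 825 in anergic and 869, 807 and 1008 in Treg libraries.

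Counted over gene lists, the shared peaks fell unevenly around the 2.61% of all peaks. That background includes the 33.2% of peaks within 1 kb of a start site, which held only 86 shared peaks. The lists were not matched to it for distance from a start site. The Treg identity list had 36 of 171 peaks (21.1%), of which Cd83, Ikzf2 and Ctla4 supplied 29, and 8 of its 25 genes with a peak held any. Inhibitory receptors and exhaustion regulators had 21 of 141 (14.9%), follicular helper genes 12 of 156 (7.69%), Th1 and cytotoxic genes 6 of 83 (7.23%), AP-1, BATF and IRF factors 12 of 170 (7.06%) and TNF ligands 5 of 71 (7.04%). Lists share genes, and the peaks of 1 gene are not independent, so these shares rest on few loci. Of markers of other cells, B cell genes had 3 of 11, at Ly86 and at the promoter of Cd74, which encodes the invariant chain of MHC class II. Of the defining B cell genes Cd79a, Ms4a1 and Pax5 had no peak, and the 1 Ebf1 peak had 63.4 to 92.9 in naive, 64.4 to 102 in effector, 73.3 to 113 in anergic and 145 to 171 in Treg libraries. Myeloid markers had 0 of 24 and CD8, NK and innate-like T markers 0 of 33. Erythroid and platelet genes had 1 of 7, at Alas2, and housekeeping genes 0 of 54. Summed over Itgam, Adgre1 and Spi1, the myeloid signal was 1264 to 1369 in anergic and 1419 to 1618 in Treg libraries, against 1385 to 1542 in effector and 1542 to 1848 in naive libraries.

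**Figure D5:**
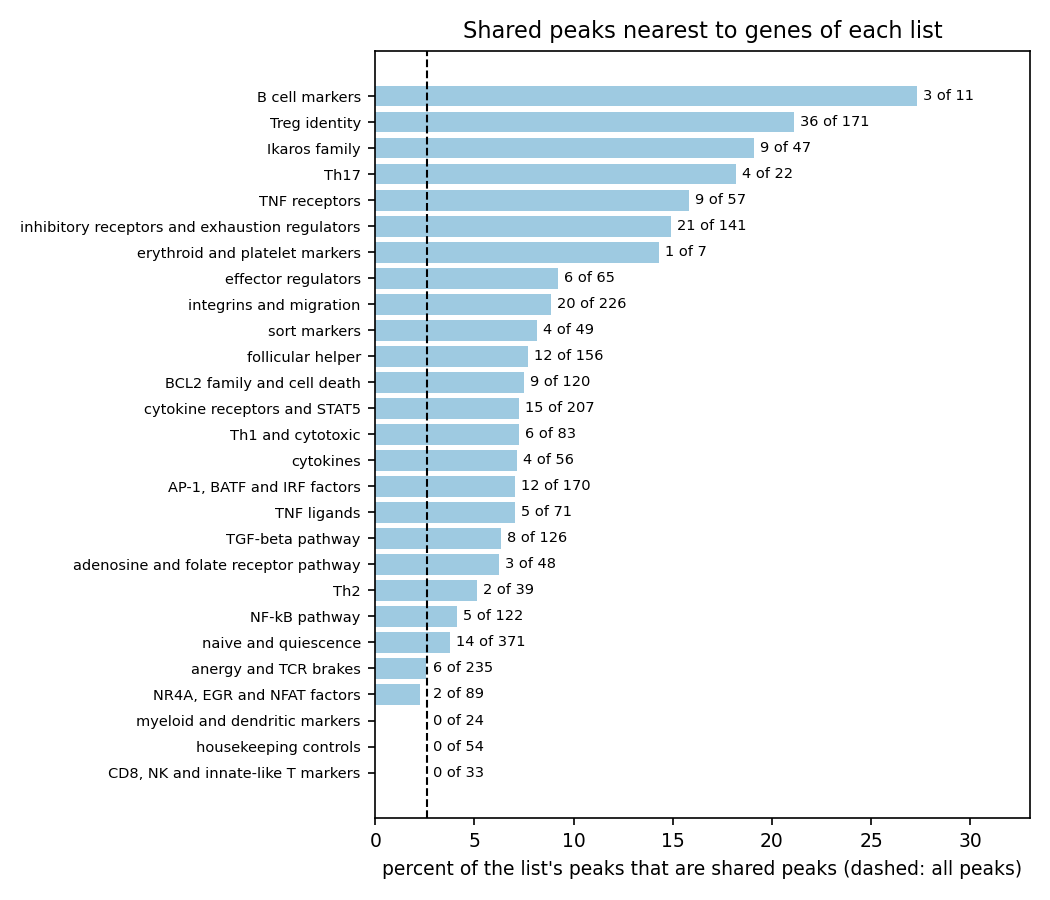
Percentage of the peaks nearest to the genes of each list that were shared peaks (bars), with the counts at the bar ends and a dashed line at the 2.61% of all peaks. Treg identity (36 of 171) and inhibitory receptor genes (21 of 141) lie well right of the line, TCR brakes (6 of 235) at it, and housekeeping, myeloid and CD8 or NK genes at 0, while B cell, Th17 and erythroid bars rest on 22 peaks or fewer.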

How the data were processed

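ATAC-seq signal per consensus peak was taken from the authors' deposited table. The design text of the series lists trimming of reads (Trimmomatic 0.38.1), then says they were aligned to mm10 (Bowtie2 2.3.3.1), sorted (SAMtools 1.13), called into peaks per sample with duplicate removal and transposase adjustment (Genrich 0.5) and merged (DiffBind 2.10.0) into 38509 peaks. The deposited signal was 1 library factor times whole reads for 100.0% of values (tolerance 0.01); its method is not given in the sources used here. limma 3.58.1 (limma-trend, R 4.3.3) was run on log2(signal + 1) with all 11 libraries and group as the only term, in place of edgeR, after the filter of edgeR 4.0.16 (filterByExpr) removed 16 peaks. Adjusted p-values are Benjamini-Hochberg over 38493 peaks, with a threshold of 0.05; fits were tested on simulated data. As an alternative, edgeR's quasi-likelihood test on recovered reads called 15735 peaks for effector against naive, limma 15423, and 15174 were shared. Peaks were assigned here to the nearest start of 45756 RefSeq transcripts (GRCm38.p6); 68 on unplaced contigs were left out of position and motif counts. File starts count from 0 and were raised by 1. Members and gene lists were chosen with earlier results of these data known. Named genes are the 12 with most members, the 10 largest margins without library overlap, up to 3 genes per list, the sort markers, Batf and Bcl2l11, and the 3 members and 3 non-members nearest the threshold. Other peaks named (Foxp3, Lrrc32, Nt5e, Il10, promoter peaks of Itgb8 and further peaks of named genes) were chosen after their values were seen. Results for a few genes that these rules name are not reported here.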

Additional observations from a re-analysis of the deposited data

How the results depend on the processing

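A margin of 1.5 left 375 peaks, all called higher in each tolerant group than in effector and naive cells. These contrasts chose the peaks, and 14.4 to 25.3% of all tested peaks were so called. In anergic against Treg cells 11 were higher and 2 lower, against 19.4% and 14.8% of all. In effector against naive cells 283 (75.5%) were higher and 0 lower, against 22.7% and 17.4% of all. That count of 0 by limma was also 0 at an unadjusted p under 0.05, and 0 by edgeR with and without adjustment. Shares of all tested peaks called lower were not computed for these alternatives. Of these 375 peaks 6.13% lay within 1 kb of a start site and 35.7% held an AP-1 match. Narrowing the gap between anergic and Treg cells to 0.4 left 634 peaks. Within 500 bases of a start site lay 6.18%, and windows of 200 bases held AP-1 in 27.8%. Of the 1004 shared peaks, edgeR on recovered reads called 33 lower and 43 higher in anergic than Treg cells, against 17 and 48 by limma. Over all 38493 tested peaks, calls in either direction numbered 12820 by edgeR and 13142 by limma.

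Leaving out each library in turn and choosing the peaks again gave 932 to 1142 peaks, of which 868 to 984 were among the 1004, and 622 were chosen every time. The fewest of the 1004 were kept without Treg replicate 2 (868). The calls were 892 to 1094 (anergic over effector), 930 to 1136 (anergic over naive), 821 to 1062 (Treg over effector), 919 to 1129 (Treg over naive), 550 to 684 (effector over naive) and 4 to 11 (effector under naive, lowest without naive replicate 1). Anergic over Treg calls ranged from 21 to 68 and anergic under Treg calls from 8 to 20, with 21 to 30 and 8 to 14 when an anergic or Treg library was left out. Shares of all tested peaks were not computed with a library left out, so nothing about the shared peaks is read from these ranges. Within 1 kb of a start site lay 7.94 to 9.20%, and AP-1 was held by 31.2 to 33.4%. Leaving out a naive library assumes that the lone one varies like the other groups.

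Deviations from the group means correlated at -0.114 to 0.155 over 15 pairs of same-numbered libraries of different groups. For differently numbered libraries the range was -0.22 to 0.186 over 30 pairs. Such deviations cancel within each small group, so the correlations are not independent and cannot exclude pairing. The main fit did not pair samples by number. With the replicate number as a block the calls were 981, 997, 963 and 991 for the 4 contrasts of the rule, 62 and 21 for anergic over and under Treg, and 627 and 8 for effector over and under naive. Over all tested peaks, effector against naive gave 15358 calls in either direction with the block and 15423 without it. Anergic against Treg gave 13884 with the block and 13142 without it. The main limits are the 2 naive libraries, the few reads at shared peaks in naive cells, effector replicate 3, and genes assigned by distance alone.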
